A study of Mus musculus with 6 samples.

Results

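Collagen chains are the protein strands from which the collagens of the extracellular matrix are wound, and each is encoded by its own gene. The chains described here are the genes whose symbol is Col, a number, the letter a and a number, and which had at least 10 reads summed over 6 mouse neurofibromas. That rule took 43 of the 24421 gene symbols in the count table. Col9a1 lies just inside it with 10 reads, and Col6a4 lies just outside with 7 reads. RNA sequencing counts came from 3 miR155KO_Nf1KO tumours, named MiRNC149, MiRNC640 and MiRNC670, and from 3 Nf1KO tumours, named Nf803, Nf809 and Nf827. All 6 tumours came from C57BL/6J mice with floxed Nf1 (Nf1 fl/fl) and DhhCre, so that Nf1, the gene of the Ras regulator neurofibromin, was removed in cells of the Schwann cell lineage while other cells of the host kept it. The first group was also knocked out for Mir-155, the gene of a microRNA of immune cells. No drug was given, and mice were kept to a time point or tumour size limit with no age stated. The study set out to look for miR-155 targets among expression differences.

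Collagen chains carry long runs of a glycine repeat that let them wind into a rope-like helix. Fibrillar collagens build the tensile fibres of tissue, fibril-associated collagens sit on those fibres, type IV collagens form the sheet of the basement membrane, type VI collagens form beaded filaments, and transmembrane collagens stay at the cell surface. Neurofibromas are benign nerve sheath tumours rich in collagen, to which both fibroblasts and Schwann cells can contribute.

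MicroRNA sequences of 2 kinds are set beside these genes. The one removed is miR-155, whose seed (bases 2 to 8, in capitals) reads differently from that of the miR-29 family, a group of microRNAs known to repress many collagen mRNAs. The mature sequences, from the RefSeq annotation of GRCm38.p6, are shown so that the sites in the collagen genes can be compared with them.
mmu-miR-155-5p: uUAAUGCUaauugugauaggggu
mmu-miR-29a-3p: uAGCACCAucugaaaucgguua
mmu-miR-29b-3p: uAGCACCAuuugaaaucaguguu
mmu-miR-29c-3p: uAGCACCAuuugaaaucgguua

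In GENCODE M21 (GRCm38), the 3′ UTR of greatest length was taken for every gene and searched on its own strand for the 8mer AGCATTAA or its 7-base parts AGCATTA and GCATTAA (miR-155), and for the 8mer TGGTGCTA or its 7-base parts TGGTGCT and GGTGCTA (miR-29). Only Col25a1 and Col27a1, 2 of the 43 chains or 4.65%, held the miR-155 8mer, against 3.51% of the 14035 tested genes with a 3′ UTR. Any miR-155 match was found in 9 chains, or 20.93%, against 14.84% of those genes. The sites below lie in Col25a1 (chr3:130598533-130598562, plus strand), Col27a1 (chr4:63328608-63328637, plus strand) and Col5a2 (chr1:45375177-45375206, minus strand), and the capitals mark the match.
Col25a1 miR-155 8mer: agtgctagtgaAGCATTAAgaaataacagt
Col27a1 miR-155 8mer: acctcatccagAGCATTAAgacacccttgg
Col5a2 miR-155 7-base match: acaagaagtccAGCATTAtaatgatcactc

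The miR-29 8mer was more frequent in the collagen genes than in all tested genes. It was present in 16 of the 43 chains, or 37.21%, against 3.56% of all tested genes, although the median 3′ UTR was 1110 bases long in the chains and 1393 bases long in all tested genes. Carriers of the 8mer that were tested but not called were Col1a1, Col4a1, Col4a5, Col4a6, Col5a3, Col6a2, Col7a1 and Col15a1. Col5a3 had a positive log2 fold change of 0.30, and the others had negative values. The sites printed here belong to the chain with the most reads per length, to 3 fibrillar chains, to a type VI chain and to a transmembrane chain, all called lower. They lie in Col8a1 (chr16:57624694-57624723, minus strand), Col3a1 (chr1:45348971-45349000, plus strand), Col5a2 (chr1:45374954-45374983, minus strand), Col2a1 (chr15:97975670-97975699, minus strand), Col6a3 (chr1:90767400-90767429, minus strand) and Col25a1 (chr3:130597870-130597899, plus strand).
Col8a1 miR-29 8mer: atattctaccaTGGTGCTAatatcagagct
Col3a1 miR-29 8mer: aaatgtctcaaTGGTGCTAtaataaataaa
Col5a2 miR-29 8mer: tcttttaatgaTGGTGCTAaaattatttct
Col2a1 miR-29 8mer: gtcctacacaaTGGTGCTAttctgtgtcaa
Col6a3 miR-29 8mer: acctgtcaataTGGTGCTAaatgtgtctat
Col25a1 miR-29 8mer: atttgtgttgtTGGTGCTAatagatcttcc

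Collagen mRNA was less abundant in the tumours without miR-155. Summed over the 43 chains, the level was 5806 CPM in MiRNC149, 5781 in MiRNC640 and 6793 in MiRNC670, against 11984 in Nf803, 10616 in Nf809 and 12607 in Nf827. CPM are reads per 1e+06 reads of the TMM-scaled library size. Every miR155KO_Nf1KO tumour lay below every Nf1KO tumour, and the ratio of the group means, 6127 ± 577 over 11735 ± 1018 CPM (SD, n = 3 each), was 0.522. Col8a1 alone made up 625 CPM of the miR155KO_Nf1KO mean and 2801 CPM of the Nf1KO mean. For the sum of the fibrillar chains, which leaves Col8a1 out, the ratio of the group means was 0.621. Collagen reads made up 0.572% to 0.657% of a miR155KO_Nf1KO library and 1.05% to 1.28% of an Nf1KO library. In bulk tumour RNA, fewer cells of a type and less RNA per cell cannot be told apart.

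Of the 40 chains with enough reads for a test, 11 were lower in miR155KO_Nf1KO tumours (Col1a2, Col2a1, Col3a1, Col5a1, Col5a2, Col6a3, Col8a1, Col12a1, Col18a1, Col25a1 and Col28a1) at an edgeR adjusted p under 0.05. That is 27.5% of the chains tested, against 4.74% of all 15604 genes tested. Col23a1 and Col24a1 were higher, which is 5% of the chains against 5.22% of all genes. In either direction 9.96% of all genes were called. The median log2 fold change was -0.54 over the 40 chains and 0.01 over all genes, and 31 of the 40 values were negative. The CPM ranges of the groups did not overlap, with miR155KO_Nf1KO below, for 17 chains, or 42.5%, against 16.3% of all genes. For 4 chains they did not overlap with miR155KO_Nf1KO above, for which the share over all genes was also 16.3%. The chains Col9a1, Col13a1 and Col22a1 had too few reads for the test.

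**Figure D1:**
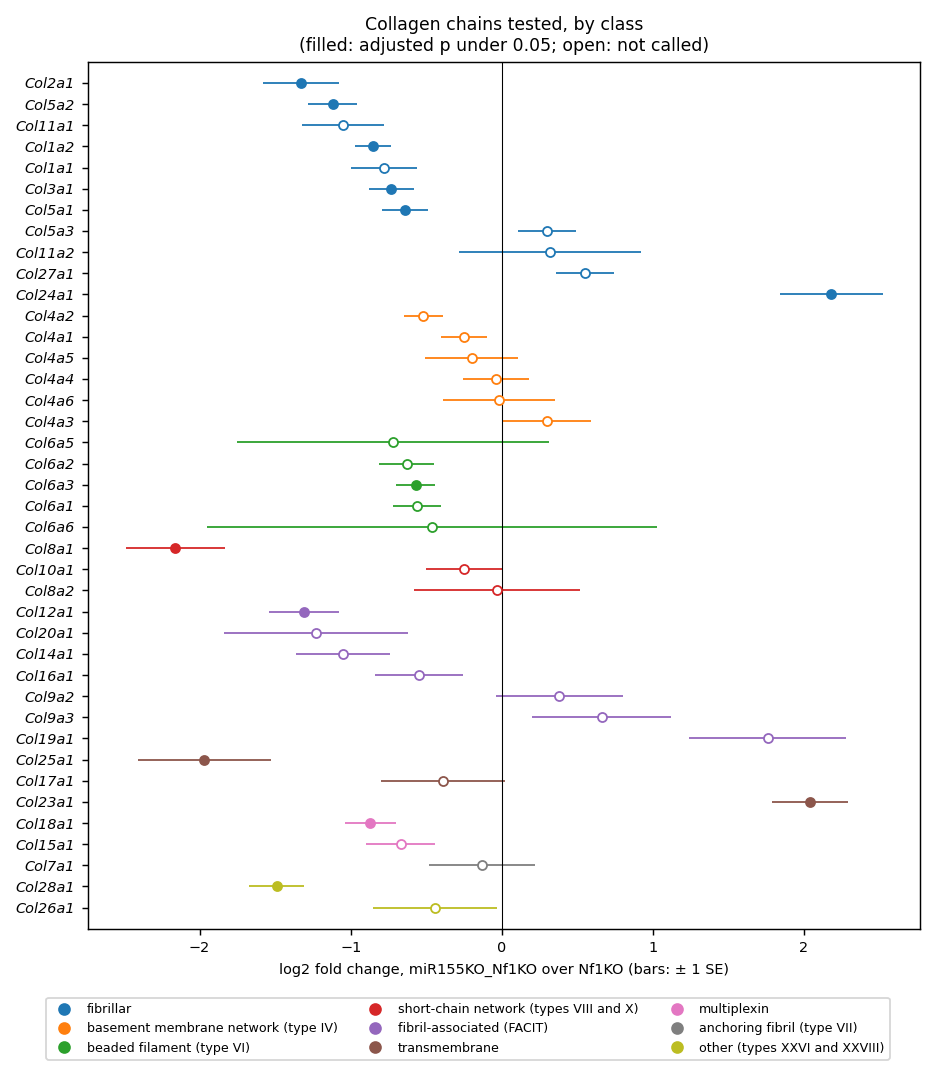
Log2 fold change of each of the 40 tested chains (x axis, miR155KO_Nf1KO over Nf1KO; bars are ± 1 SE), in rows ordered by collagen class; filled points passed an edgeR adjusted p under 0.05. Col8a1 lies farthest to the left at -2.16 and Col24a1 farthest to the right at 2.18, and 11 filled points lie left of 0 and 2 right of it.

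The edgeR calls depended on which tumours were kept. Leaving out MiRNC149 gave 8 lower and 2 higher chains, with 4.16% of all genes lower and 5.04% higher. Leaving out MiRNC640 gave 2 lower and 1 higher, with 0.268% and 0.618% of all genes, and leaving out Nf809 gave 13 lower and 2 higher, with 6.61% and 7.38% of all genes. Without MiRNC670, Nf803 or Nf827 edgeR called 0 genes in the whole table. In those fits 18, 17 and 17 chains were lower and 3, 4 and 4 higher at an unadjusted edgeR p under 0.05. The share of all genes at that threshold was not counted, so these counts do not set the chains against other genes. With all 6 tumours DESeq2 called 18 chains lower, where 9.44% of all genes were, and 3 higher, where 9.54% of all genes were. On the 3 sets without MiRNC670, Nf803 or Nf827 it called 15, 12 and 13 chains lower, with 6.66%, 6.38% and 5.71% of all genes lower, and 2, 3 and 2 chains higher, with 5.71%, 6.64% and 6.56% of all genes higher. All 13 chains kept their direction in each of these fits, and all 13 were called by DESeq2 in each of the 6 fits that left out 1 tumour.

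Per kilobase of transcript, which allows chains to be ranked against each other, Col8a1 was the most abundant chain over the 6 tumours. Its level was 122 ± 53.0 CPM per kb in miR155KO_Nf1KO and 548 ± 71.9 CPM per kb in Nf1KO (SD, n = 3 each). Col1a2 came next with 172 ± 12.6 and 310.1 ± 20.1 CPM per kb, then Col3a1 with 161 ± 25.3 and 268 ± 23.7, Col1a1 with 108 ± 33.1 and 186 ± 20.8, and Col28a1 with 41.1 ± 8.74 and 116 ± 11.3 CPM per kb in miR155KO_Nf1KO and Nf1KO tumours. Among miR155KO_Nf1KO tumours alone the mean of Col8a1 was below those of Col1a2 and Col3a1. Together these 5 chains held 54.4% to 60.8% of collagen reads per kb in miR155KO_Nf1KO tumours and 65.4% to 69.9% in Nf1KO tumours, with no overlap.

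The fibrillar class, which forms the load-bearing fibres, had 5 of its 11 members lower and 1 higher, with a median log2 fold change of -0.73. That is 45.5% lower and 9.09% higher, against 4.74% and 5.22% of all genes. The summed level of the class was 3264, 3503 and 3936 CPM in MiRNC149, MiRNC640 and MiRNC670, against 5957, 5138 and 6153 CPM in Nf803, Nf809 and Nf827. Those groups lie apart.

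Type I collagen, the main collagen of most connective tissue, is a heterotrimer of the Col1a1 and Col1a2 chains. Col1a2 (chr6:4504814-4541544, plus strand) had 843, 957 and 961 CPM in miR155KO_Nf1KO tumours and 1681, 1541 and 1753 CPM in Nf1KO tumours, a log2 fold change of -0.85 (SE 0.12, edgeR adjusted p = 0.0201). Its partner Col1a1 (chr11:94936224-94953042, plus strand) had 475, 593 and 858 CPM in miR155KO_Nf1KO tumours and 1138, 964 and 1203 CPM in Nf1KO tumours, with no overlap, but it was not called at a log2 fold change of -0.78 (SE 0.22, edgeR adjusted p = 0.0704). MiRNC670 was the highest of the miR155KO_Nf1KO tumours for both chains. The ratio of Col1a1 to Col1a2 per kb was 0.508, 0.559 and 0.805 in miR155KO_Nf1KO and 0.611, 0.564 and 0.619 in Nf1KO tumours, so the groups overlapped.

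Type III collagen, the homotrimer of Col3a1 (chr1:45311538-45349706, plus strand) that accompanies type I in soft tissue, was also lower. Col3a1 had 747, 915 and 1026 CPM in miR155KO_Nf1KO tumours against 1479, 1363 and 1626 CPM in Nf1KO tumours, a log2 fold change of -0.73 (SE 0.15, edgeR adjusted p = 0.0315). The gap between the groups, from the highest of the first to the lowest of the second, exceeded the range within either. Relative to Col1a2, Col3a1 per kb was 0.852, 0.918 and 1.03 in miR155KO_Nf1KO and 0.846, 0.850 and 0.892 in Nf1KO tumours, with overlap. Col2a1 (chr15:97975602-98004695, minus strand), the fibrillar chain of cartilage, had 29.0, 26.4 and 31.4 CPM in miR155KO_Nf1KO and 79.2, 46.9 and 92.3 CPM in Nf1KO tumours (log2 fold change -1.33, SE 0.25, edgeR adjusted p = 0.0266). Among the cartilage and bone genes, Acan was at no more than 0.508 CPM in any tumour and Matn1 at 0. Runx2, also a gene of other mesenchymal cells, was lower at 89.2, 50.4 and 80.4 CPM in miR155KO_Nf1KO and 152, 142 and 126 CPM in Nf1KO tumours. Hapln1 was higher at 12.3, 13.3 and 21.4 CPM in miR155KO_Nf1KO and 3.63, 5.44 and 1.54 CPM in Nf1KO tumours. The sum of that list lay apart with miR155KO_Nf1KO below, but Runx2 made up most of it in every tumour. The sum therefore does not describe the other genes of the list, and the list's part in the result for Col2a1 was not tested.

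Type V collagen, which nucleates type I fibrils and sets their width, gave a split between its chains. Col5a2 (chr1:45374321-45503282, minus strand) had 292, 205 and 232 CPM in miR155KO_Nf1KO tumours and 577, 463 and 542 CPM in Nf1KO tumours, a log2 fold change of -1.12 (SE 0.16, edgeR adjusted p = 0.0202). For Col5a1 (chr2:27886425-28039514, plus strand) the values were 284, 279 and 298 CPM in miR155KO_Nf1KO and 460.3, 359 and 519 CPM in Nf1KO tumours (log2 fold change -0.64, SE 0.15, edgeR adjusted p = 0.0418). Col5a3, whose rat counterpart Schwann cells secrete, had 226, 156 and 146 CPM in miR155KO_Nf1KO and 157, 126 and 145 CPM in Nf1KO tumours, with overlap and a log2 fold change of 0.30 (SE 0.19, edgeR adjusted p = 0.365). Within a tumour, Col5a3 per kb was therefore 0.839, 0.825 and 0.681 of Col5a2 in miR155KO_Nf1KO and 0.295, 0.294 and 0.290 of it in Nf1KO, ratios that need no scaling between libraries. The ratio of Col5a1 to Col5a2 was 0.765, 1.07 and 1.01 in miR155KO_Nf1KO and 0.629, 0.611 and 0.754 in Nf1KO tumours, apart by a narrow margin. With 3 tumours a group, an exact two-sided permutation test cannot go below p = 0.1, so the ratios are given as values only.

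Col11a1, a chain that combines with type V in fibril cores, lay apart without a call, at 86.0, 59.1 and 93.2 CPM in miR155KO_Nf1KO and 227, 144 and 123 CPM in Nf1KO tumours (log2 fold change -1.05, SE 0.27, edgeR adjusted p = 0.0531). Without Nf809 it was called by edgeR at an adjusted p of 0.0426. Its relative Col11a2 was scarce, between 0.435 and 1.48 CPM, with overlap.

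Col24a1 (chr3:145292472-145552011, plus strand), a fibrillar chain of developing bone and cornea, went the other way. It had 63.9, 163 and 135 CPM in MiRNC149, MiRNC640 and MiRNC670, against 22.4, 29.6 and 28.1 CPM in Nf803, Nf809 and Nf827. This was a 4.52-fold higher level (log2 fold change 2.18, SE 0.34, edgeR adjusted p = 0.0216), and the lowest miR155KO_Nf1KO tumour stood above the highest Nf1KO tumour. Relative to Col1a2 per kb, Col24a1 was 0.0567, 0.127 and 0.105 in miR155KO_Nf1KO and 0.00996, 0.0144 and 0.0120 in Nf1KO tumours. Col27a1, a structurally related fibrillar chain and a carrier of the miR-155 8mer, had 217, 149.5 and 153 CPM in miR155KO_Nf1KO and 135, 99.8 and 121 CPM in Nf1KO tumours, apart but not called (log2 fold change 0.55, SE 0.19, edgeR adjusted p = 0.116).

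The fibrillar calls above were lost in edgeR without MiRNC640, MiRNC670, Nf803 or Nf827, where the adjusted p reached at most 0.133, and those of Col2a1 and Col5a1 also without MiRNC149. Their log2 fold changes stayed on the same side of 0 throughout.

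**Figure D2:**
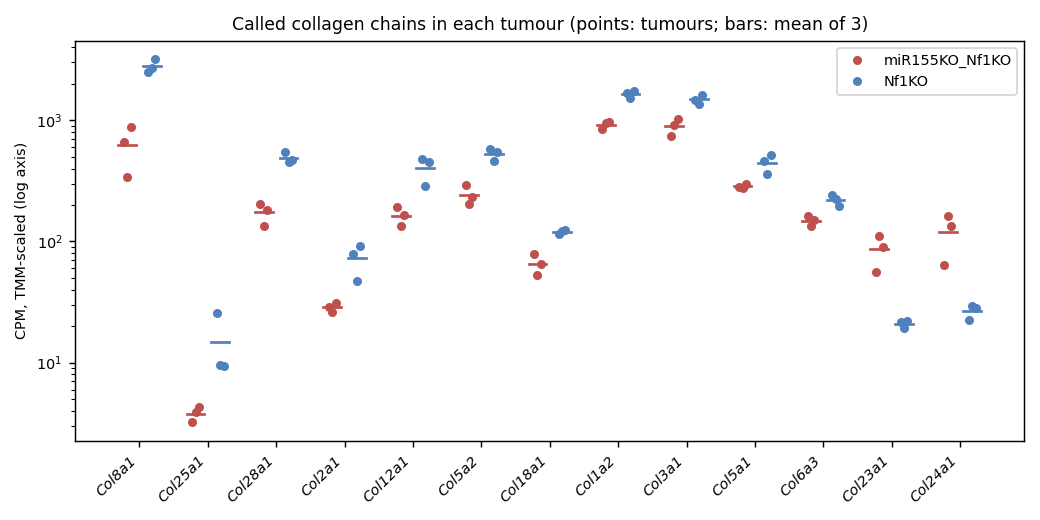
Level of each of the 13 called chains in the 6 tumours (y axis, TMM-scaled CPM on a log axis; points are tumours and short bars the mean of 3), with miR155KO_Nf1KO left of Nf1KO for each chain. The groups lie apart for each chain shown, widest for Col8a1 at 340.0 to 878 against 2498 to 3209 CPM and for Col23a1 at 56.5 to 111 against 19.2 to 22.0 CPM.

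Fibril-associated collagens lie along the surface of fibrils and link them to other matrix. Of the 9 members, 7 were tested and 1 was lower, or 14.3% against 4.74% of all genes. The class median log2 fold change was -0.55. Col12a1 (chr9:79598991-79718831, minus strand), found where tissue bears tension, had 192, 134 and 165 CPM in miR155KO_Nf1KO and 482, 287 and 448 CPM in Nf1KO tumours (log2 fold change -1.31, SE 0.23, edgeR adjusted p = 0.0244). Its nearest relative Col14a1 had 50.7, 127 and 88.9 CPM in miR155KO_Nf1KO and 191, 153 and 208 CPM in Nf1KO tumours, apart but not called (log2 fold change -1.05, SE 0.31, edgeR adjusted p = 0.0785). The call of Col12a1 was kept by edgeR without MiRNC149 or Nf809 and lost without each of the other 4 tumours.

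Col19a1, a chain of muscle and synapses in mice, was higher in each miR155KO_Nf1KO tumour at a low level, with 43, 28 and 60 reads against 16, 16 and 9 reads in Nf1KO tumours. At a log2 fold change of 1.76 (SE 0.52) its edgeR adjusted p was 0.0761, and DESeq2 called it at an adjusted p of 0.0203. Col16a1 (log2 fold change -0.55), Col20a1 (-1.23), Col9a2 (0.38) and Col9a3 (0.66) overlapped between the groups and were not called. Col20a1 was the most variable of these, at 44.4, 9.32 and 16.9 CPM in miR155KO_Nf1KO and 46.7, 30.4 and 88.4 CPM in Nf1KO tumours. Col9a1, of cartilage fibrils like Col9a2 and Col9a3, had 0, 2 and 0 reads in miR155KO_Nf1KO and 1, 0 and 7 reads in Nf1KO tumours.

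Type VI collagen, a heterotrimer of Col6a1, Col6a2 and a larger chain, makes beaded filaments around cells and is produced by fibroblasts of the nerve. Col6a3 (chr1:90765923-90843971, minus strand) was the chain called lower, at 161, 135 and 149.8 CPM in miR155KO_Nf1KO and 242, 225 and 195 CPM in Nf1KO tumours (log2 fold change -0.57, SE 0.13, edgeR adjusted p = 0.0390). Col6a1, with a log2 fold change of -0.56 (SE 0.16, edgeR adjusted p = 0.0646), and Col6a2, with -0.63 (SE 0.18, edgeR adjusted p = 0.0687), had values of the same size and groups that lay apart, without a call. Col6a1 had 97.9, 91.7 and 131 CPM in miR155KO_Nf1KO and 163, 157 and 154 CPM in Nf1KO tumours. The ratio of Col6a1 to Col6a2 overlapped between the groups, as did that of Col6a3 to Col6a2. DESeq2 called all 3 chains lower, and edgeR lost Col6a3 without MiRNC640, MiRNC670, Nf803 or Nf827.

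The alternative chains Col6a5 and Col6a6 varied from tumour to tumour in both groups. Col6a5 had 10.3, 23.4 and 27.3 CPM in miR155KO_Nf1KO and 65.2, 1.24 and 34.4 CPM in Nf1KO tumours. Col6a6 had 0.0644, 4.19 and 0.158 CPM in miR155KO_Nf1KO and 3.41, 0.0618 and 2.68 CPM in Nf1KO tumours. For Col6a5 Nf809 was the lowest of the 6 tumours, and for Col6a6 Nf809 and MiRNC149 had 1 read each. Neither gene was called.

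Type IV collagen forms the basement membrane that wraps Schwann cells, vessels and perineurial cells. By edgeR 0 of its 6 chains were called, where 9.96% of all genes were. Col4a2 alone had an unadjusted edgeR p under 0.05, and DESeq2 called it lower, where 9.44% of all genes were. The 6 chains had a median log2 fold change of -0.12, nearer to 0 than that of the fibrillar chains. Scarce chains count as much as abundant ones in that median. Col4a1 had 204, 268 and 198 CPM in miR155KO_Nf1KO and 268, 285 and 246 CPM in Nf1KO tumours, with overlap (log2 fold change -0.25, SE 0.15). Its partner Col4a2 lay apart at 240.4, 294 and 234 CPM in miR155KO_Nf1KO and 374, 394 and 332 CPM in Nf1KO tumours (log2 fold change -0.52, SE 0.13, edgeR adjusted p = 0.0537). These genes are transcribed head to head, with annotated ends that overlap by 22 bases on chromosome 8. Per kb their ratio was 0.829, 0.891 and 0.825 in miR155KO_Nf1KO and 0.699, 0.706 and 0.721 in Nf1KO tumours.

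The other type IV chains, which replace the common pair in kidney, lung and epithelia, were scarcer, up to 26.2 CPM, and overlapped between the groups. Their log2 fold changes were 0.30 for Col4a3, -0.04 for Col4a4, -0.20 for Col4a5 and -0.02 for Col4a6. Summed over the type IV chains, the level was 487, 599 and 486 CPM in miR155KO_Nf1KO and 693, 723 and 617 CPM in Nf1KO tumours. Those sums lie apart, with miR155KO_Nf1KO below. As a share of collagen reads per kb, type IV chains together held 7.32%, 9.11% and 6.14% in miR155KO_Nf1KO tumours and 4.96%, 5.76% and 4.16% in Nf1KO tumours.

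**Figure D3:**
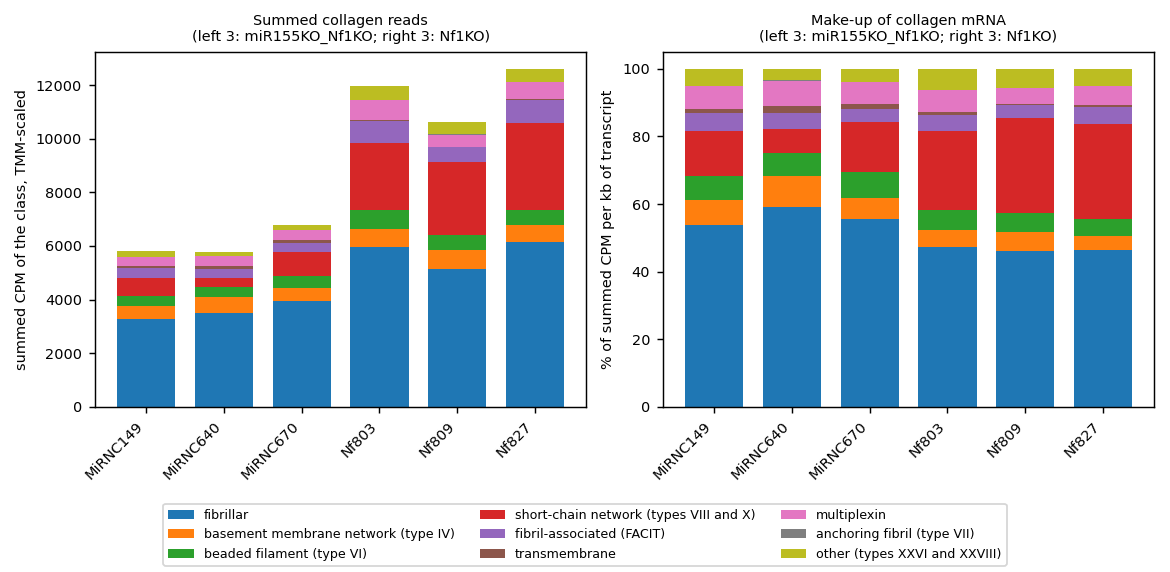
Summed level of the collagen chains by class in each tumour, as CPM and as a percent of collagen reads per kb (y axes; bars are stacked and start at 0), with the 3 miR155KO_Nf1KO tumours on the left. The share of types VIII and X per kb is 6.99% to 14.8% in miR155KO_Nf1KO and 23.3% to 28.1% in Nf1KO tumours, and that of the fibrillar class is 53.9% to 59.1% in miR155KO_Nf1KO and 46.0% to 47.4% in Nf1KO tumours.

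The short-chain collagens of types VIII and X form hexagonal networks. Col8a1 (chr16:57624258-57754737, minus strand), known from the vessel wall and the cornea, had the largest drop of the 40 chains tested. It had 656, 340.0 and 878 CPM in MiRNC149, MiRNC640 and MiRNC670, against 2498, 2694 and 3209 CPM in Nf803, Nf809 and Nf827. The level was 4.48-fold lower (log2 fold change -2.16, SE 0.33, edgeR adjusted p = 0.0212), with a wide gap between the groups. Leaving out 1 tumour at a time moved the log2 fold change between -2.52 and -1.87, and the edgeR call was lost without MiRNC670, Nf803 or Nf827. Relative to Col1a2 per kb, Col8a1 was 0.815, 0.372 and 0.957 in miR155KO_Nf1KO and 1.56, 1.83 and 1.92 in Nf1KO tumours. Its gene lies on the chromosome of Mir155hg, the host gene of miR-155, at a distance of 26.9 Mb. Col8a2, the partner chain, was scarce at 1.28 to 3.80 CPM in miR155KO_Nf1KO and 1.61 to 3.48 CPM in Nf1KO tumours. Col10a1, the chain of growth-plate cartilage, had 8.65 to 15.5 CPM in miR155KO_Nf1KO and 13.5 to 14.4 CPM in Nf1KO tumours, and both overlapped.

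Multiplexins sit in basement membrane zones and end in a domain that can be released as an antiangiogenic fragment. Col18a1 (chr10:77052178-77166548, minus strand), the source of endostatin, had 79.6, 52.7 and 64.9 CPM in miR155KO_Nf1KO and 114, 122 and 125 CPM in Nf1KO tumours (log2 fold change -0.87, SE 0.17, edgeR adjusted p = 0.0266). Its call in edgeR was lost without MiRNC640, MiRNC670, Nf803 or Nf827. Col15a1 had 263, 325 and 320.2 CPM in miR155KO_Nf1KO and 603, 323 and 522 CPM in Nf1KO tumours, so that Nf809 lay within the other group. It was not called (log2 fold change -0.67, SE 0.23, edgeR adjusted p = 0.111), but without Nf809 its log2 fold change was -0.89 with an edgeR adjusted p of 0.0123.

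Transmembrane collagens are anchored in the cell membrane and can be shed from it. Of the 3 chains of this class tested, 1 was called in each direction, where 4.74% of all genes were lower and 5.22% higher. Col23a1 (chr11:51289920-51583918, plus strand) had 56.5, 111 and 90.8 CPM in miR155KO_Nf1KO and 21.6, 19.2 and 22.0 CPM in Nf1KO tumours, 4.11-fold higher (log2 fold change 2.04, SE 0.25, edgeR adjusted p = 0.0186). Col25a1 (chr3:130131501-130599877, plus strand), which motor axons need to innervate muscle in mice, had 50, 58 and 54 reads in miR155KO_Nf1KO and 354, 156 and 140 reads in Nf1KO tumours. It was 3.91-fold lower (log2 fold change -1.97, SE 0.44, edgeR adjusted p = 0.0386). The miR155KO_Nf1KO values were close together and the Nf1KO values were led by Nf803. Without Nf803 the log2 fold change of Col25a1 was -1.35, and edgeR called it in 1 of the 6 sets that left out 1 tumour, that without Nf809, while DESeq2 called it in 6 of 6. With all 6 tumours limma voom did not call it (log2 fold change -1.79, limma adjusted p = 0.0774). Col23a1 lost its edgeR call without MiRNC670, Nf803 or Nf827. Col17a1, a chain of epithelial hemidesmosomes, had 1.89 to 2.61 CPM in miR155KO_Nf1KO and 2.01 to 4.08 CPM in Nf1KO tumours, and Col13a1 had 3 to 11 reads in miR155KO_Nf1KO and 0 to 15 reads in Nf1KO tumours.

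Col28a1 (chr6:7997808-8192617, minus strand), a chain with a restricted distribution centred on peripheral nerve in mice, where it lies at the surface of glia, had 206, 133 and 183 CPM in miR155KO_Nf1KO and 543, 453 and 470.5 CPM in Nf1KO tumours. It was 2.81-fold lower (log2 fold change -1.49, SE 0.18, edgeR adjusted p = 0.0186), and its edgeR call was lost without MiRNC670, Nf803 or Nf827. Relative to Col1a2 per kb, Col28a1 was 0.309, 0.176 and 0.240 in miR155KO_Nf1KO and 0.408, 0.372 and 0.339 in Nf1KO tumours, which do not overlap. Of the 16 tested Schwann cell genes, 4 were called higher and 0 lower, where 5.22% and 4.74% of all genes were. Their median log2 fold change was 0.28. Sox10, a transcription factor of that lineage, had 333, 287 and 277 CPM in miR155KO_Nf1KO and 249, 215 and 263 CPM in Nf1KO tumours. Gfra3 (log2 fold change -0.72), Tfap2a (-0.63) and Ncam1 (-0.18) went the other way without a call. The part of these genes in the result for Col28a1 was not tested. Col26a1 (log2 fold change -0.44, SE 0.41) and Col7a1, the chain of anchoring fibrils (-0.13, SE 0.35), overlapped and were not called.

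**Figure D4:**
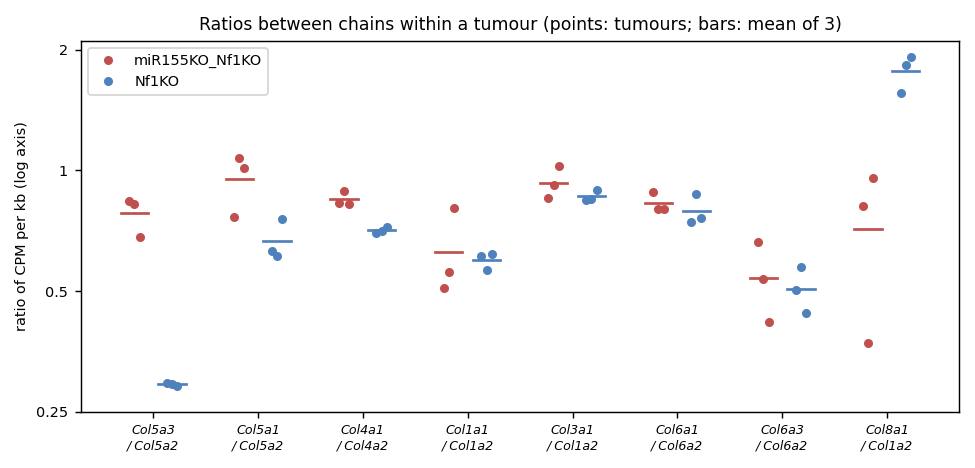
Ratios between pairs of chains within a tumour, from CPM per kb (y axis, log; points are tumours and short bars the mean of 3), with miR155KO_Nf1KO left of Nf1KO for each pair. Col5a3 to Col5a2 is 0.681 to 0.839 in miR155KO_Nf1KO and 0.290 to 0.295 in Nf1KO tumours, whereas Col1a1 to Col1a2 overlaps between the groups.

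Several collagen genes lie beside each other. Col3a1 and Col5a2 point at each other across 24.6 kb of chromosome 1, and both were lower. Col6a2 and Col6a1 lie 85.2 kb apart on chromosome 10, with nearly equal log2 fold changes and no call. Col4a4 and Col4a3, 71 bases apart on chromosome 1, and Col4a6 and Col4a5, 1308 bases apart on X, gave no call. Annotated exons of 12 chains overlap those of another gene. The longest overlaps are those of Col4a3 with C430014B12Rik (563 bases) and Col9a3 with Tcfl5 (234 bases), and the called Col5a1 shares 212 bases with other genes; the partners named lie on the opposite strand. Col3a1 shares 141 bases with the microRNA gene Gm47302 on its own strand. Reads in these stretches may have been shared or dropped, since neither the strand setting nor the handling of overlaps is given in the sources used here.

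Among all 40 tested chains 27.5% were called lower and 5% higher, against 4.74% and 5.22% of all genes. Of the 15 tested chains with a miR-29 8mer, 7 were called lower and their median log2 fold change was -0.64. Among the 25 without one, 4 were called lower and the median was -0.44. Both chains called higher lacked the 8mer, but Col24a1 held a 7-base miR-29 match. Of the 24 tested chains with any miR-29 match, 8 were called lower and 1 higher, with a median of -0.56. Among the 16 with no match, 3 were lower and 1 higher, with a median of -0.32. Of the 8 tested chains with any miR-155 match, Col5a2 and Col25a1 were called lower, and the median was -0.59 against -0.54 for the 32 without a match. Col25a1 with the miR-155 8mer was lower, and Col27a1 with the same 8mer had a positive log2 fold change without a call. These splits are descriptions of the listed chains, a sequence match is not a shown binding site, and mature microRNAs were not measured in these libraries.

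**Figure D5:**
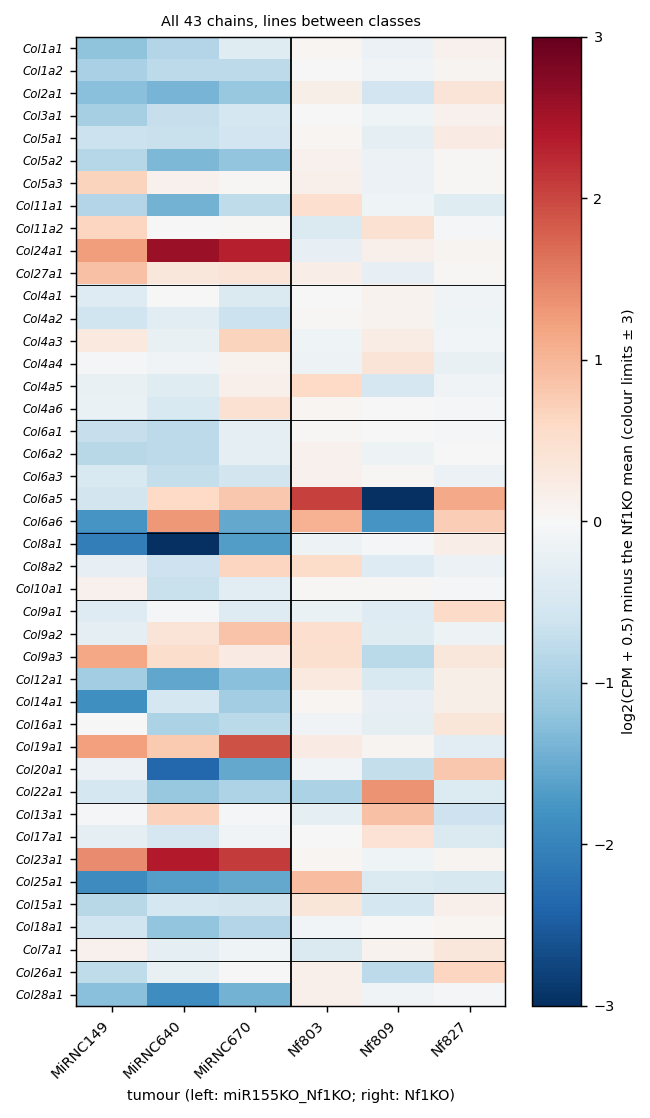
Each of the 43 chains in each tumour as log2(CPM + 0.5) minus the mean of the Nf1KO tumours (colour, limited to ± 3), with miR155KO_Nf1KO on the left and lines between classes. Lower values fill most fibrillar, type VI and multiplexin rows on the left, while Col23a1, Col24a1 and Col19a1 are higher there and Col6a5 and Col6a6 vary within both groups.

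Genes that make collagen ready for secretion were lower in part. The lists of folding, assembly and receptor genes were chosen with earlier results of these data known. Their called shares therefore describe the listed genes only. Of 22 tested genes of procollagen folding, modification and secretion, 6 were lower, or 27.3% against 4.74% of all genes, with a median log2 fold change of -0.54. Serpinh1, the collagen chaperone HSP47, averaged 72.4 ± 11.7 CPM in miR155KO_Nf1KO and 141.5 ± 16.2 CPM in Nf1KO tumours (SD, n = 3 each), a log2 fold change of -0.97 (SE 0.16). Plod3, a lysyl hydroxylase, averaged 32.0 ± 3.90 and 64.6 ± 4.12 CPM in miR155KO_Nf1KO and Nf1KO tumours (log2 fold change -1.01, SE 0.15). The others were Plod2 (-0.61), the prolyl hydroxylase subunits P4hb (-0.59) and P4ha1 (-0.53), and the galactosyltransferase Colgalt1 (-0.58).

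Of 20 tested genes of propeptide cleavage and fibril assembly, 9 were lower, or 45% against 4.74% of all genes, and 2 were higher, where 5.22% of all genes were. The median log2 fold change was -0.93. The lower genes were the C-propeptidase Bmp1 (-1.10), its enhancer Pcolce (-1.03), the N-propeptidase Adamts2 (-1.16), the cross-linking enzymes Loxl2 (-1.23) and Loxl3 (-0.83), and the fibril-binding proteins Lum (-1.25), Bgn (-1.59), Thbs2 (-1.65) and Fn1 (-1.74). The higher genes were Lox, the founding cross-linking oxidase (1.96, SE 0.45, 85.8, 313 and 172 CPM in miR155KO_Nf1KO against 43.04, 63.3 and 40.8 CPM in Nf1KO tumours), and Tll1, a relative of Bmp1 (1.48, SE 0.33). Lox thus differed in direction from Loxl2 and Loxl3, and its groups lay apart.

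Among 14 tested collagen receptors, 4 were lower, or 28.6% against 4.74% of all genes, and the median log2 fold change was -0.47. Ddr2, a receptor kinase for fibrillar collagen, had 124, 137 and 125 CPM in miR155KO_Nf1KO and 233, 199.8 and 229 CPM in Nf1KO tumours (log2 fold change -0.78, SE 0.12). Mrc2, which takes collagen up for breakdown, had a log2 fold change of -1.49 (SE 0.23), Sdc1 -1.46 (SE 0.30) and the shared integrin subunit Itgb1 -0.49 (SE 0.12). The collagen-binding integrin subunits Itga1 (-0.25), Itga2 (-0.15), Itga10 (-1.16) and Itga11 (0.26) were not called.

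Markers of several cell types differed between the groups beside the collagens, and their part in the results was not tested. Over all genes 4.74% were called lower and 5.22% higher. Fibroblast genes summed to 3654 to 5592 CPM in miR155KO_Nf1KO and 8488 to 9176 CPM in Nf1KO tumours. Of them 4 of 19 tested were called lower (Lum, Fbln2, Postn and Fap), and Tcf21 was at 0. The largest part of that sum was Dcn, and both Dcn and Lum also stand in the assembly list. Thy1 lay apart the other way without a call, at 237, 171 and 273 CPM in miR155KO_Nf1KO and 130, 125 and 157 CPM in Nf1KO tumours. Macrophage genes summed to 526 to 1089 CPM and 1518 to 2847 CPM in miR155KO_Nf1KO and Nf1KO tumours, with 7 of 14 lower. Myelin genes summed to 10938 to 22698 CPM in miR155KO_Nf1KO and 5944 to 6896 CPM in Nf1KO tumours with 11 of 15 higher. Neuron genes summed to 5986 to 9638 CPM in miR155KO_Nf1KO and 1495 to 3061 CPM in Nf1KO tumours, with 11 of 18 higher. Schwann cell genes summed to 6299.6 to 7619 CPM in miR155KO_Nf1KO and 5300.5 to 5829 CPM in Nf1KO tumours, with 4 of 16 higher and markers of the class present in every tumour. Perineurial genes gave 836 to 1096 CPM in miR155KO_Nf1KO and 1200.3 to 2046 CPM in Nf1KO tumours, with 1 of 9 lower. That gene was Cldn1, at 305, 128 and 279 CPM in miR155KO_Nf1KO and 728, 1091 and 497 CPM in Nf1KO tumours. The median log2 fold change of the perineurial list was -0.07, so its sum does not describe the other genes. Endothelial genes gave 277 to 516 CPM in miR155KO_Nf1KO and 285 to 402 CPM in Nf1KO tumours, and those of pericytes 336 to 683 CPM in miR155KO_Nf1KO and 558 to 689 CPM in Nf1KO tumours, both overlapping.

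Muscle, fat, skin and cartilage genes were also read. Skeletal muscle genes summed to 301, 593 and 3208 CPM in miR155KO_Nf1KO and 106, 4020.4 and 12.9 CPM in Nf1KO tumours, so MiRNC670 and Nf809 held most of them. Without both tumours, edgeR called 12 chains lower and 1 higher, with 3.24% of all genes lower and 3.61% higher. Of the 13 chains called with all tumours, Col6a3, Col18a1, Col25a1 and Col24a1 were no longer called. Col22a1, a chain of muscle-tendon junctions, had 37 of its reads in Nf809, against 0 to 5 reads in each other tumour. Adipocyte genes ranged from 291 to 5131 CPM in miR155KO_Nf1KO and from 185 to 784 CPM in Nf1KO tumours. Keratinocyte genes stayed below 10 CPM in sum in every tumour, with Krt5, Krt15 and Lor at 0. Cartilage and bone genes summed to 67.7 to 112 CPM in miR155KO_Nf1KO and 133 to 193 CPM in Nf1KO tumours, most of it Runx2. Of that list Hapln1 and Runx2 were called in opposite directions.

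The knockout was visible in the counts: Mir155hg had 5, 3 and 1 reads in miR155KO_Nf1KO and 57, 66 and 71 reads in Nf1KO tumours (log2 fold change -4.34, SE 0.54, edgeR adjusted p = 0.0186). Nf1, deleted in part of the cells of all tumours, did not pass the test (log2 fold change 0.08, SE 0.14). Library totals ran from 13061129 reads in MiRNC670 to 16333181 reads in Nf809. The first principal component held 50.4% of the variance and placed each miR155KO_Nf1KO tumour on the other side of 0 from each Nf1KO tumour, and Nf809 stood apart on the second. Nothing in the labels says that the tumours came from separate mice. Every p-value given here sets the difference between the groups against the spread of these samples only.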

How the data were processed

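A Qiagen RNeasy Plus Micro kit gave the RNA of 6 tumours and an Illumina Nextera XT kit the libraries, per the labels' protocols. The authors deposited whole-number read counts per gene symbol, 1 column per tumour, unscaled. HISAT2 2.0.5, featureCounts 1.5.2 and mm10 are named in the submitters' processing notes. Which annotation and strand setting were used, and how reads with several matches were handled, is not given in the sources used here.

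Counts were tested with edgeR 4.0.16 in R 4.3.3 (quasi-likelihood, two-sided, filterByExpr with minimum count 10 and minimum total count 15, TMM scaling, group as the only term), with Benjamini-Hochberg adjustment over the 15604 genes tested and calls at an adjusted p under 0.05. All adjusted p-values are from this test unless DESeq2 1.42.0 is named. Standard errors are those implied by the F statistic. Levels per kb divide CPM by the length of the longest principal transcript in GENCODE M21, so they carry its errors. Depth of 13061129 to 16333181 reads leaves counting error small beside the spread between tumours, except for chains of few reads. Replicate libraries differed by at least 23.46 times sampling variance, so each was counted as 1 sample; that ratio does not show that they came from separate mice.

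The members, classes, marker lists and pathway lists were chosen with earlier results of these data known. Every chain is accounted for, and in the pathway lists up to 6 called genes by smallest p are named, with the remaining called genes of the assembly list named after their values were seen. Alternatives were other scalings, low-count filters and thresholds, DESeq2, limma voom 3.58.1 and leaving out tumours. Coordinates are 1-based on GRCm38, the assembly that mm10 names. Promoter and protein sequences were not used here.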

Additional observations from a re-analysis of the deposited data

How the results depend on the processing

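All 13 called chains kept their direction under every alternative. DESeq2's size factors in edgeR, upper-quartile scaling and total counts gave 11, 13 and 14 lower chains with 2 higher. In these, 4.85%, 5.12% and 4.86% of all genes were lower and 5.15%, 4.88% and 5.23% higher. Filters of at least 10 summed reads or of 1 CPM or more in 3 tumours gave 11 and 2. There 3.85% and 4.72% of all genes were lower and 4.26% and 5.65% higher. With limma voom 11 chains were lower and 2 higher, against 3.88% and 5.19% of all genes. Of those chains 10 and 2 were among the 13, with Col25a1 lost. The scalings moved the median log2 fold change of all genes by -0.04 to -0.01. The DESeq2 Wald test called 18 chains lower and 3 higher, with 1473 genes lower and 1489 higher in all, against 739 and 815 by edgeR. At an adjusted p under 0.10 edgeR called 17 chains lower and 3 higher (1319 and 1383 genes), and under 0.01 it called 0 in each of these counts. At an unadjusted edgeR p under 0.05, 18 chains were lower and 4 higher, with the share of all genes not counted. Without both MiRNC670 and Nf809 edgeR called 12 chains lower and 1 higher, with 3.24% of all genes lower and 3.61% higher. Leaving out each tumour in turn, edgeR called 0 to 13 chains lower and 0 to 2 higher, and 0 to 1059 genes lower and 0 to 1183 higher in all. DESeq2 without each tumour, chosen after seeing the data, called 12 to 19 chains lower and 2 to 3 higher, and 917 to 1600 genes lower and 915 to 1749 higher (1565 and 1640 without MiRNC149). With 1 tumour fewer the smaller group has 2 tumours, and beyond that the cause was not tested.

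Changes of sign were seen in chains that were not called. The log2 fold change of Col6a5 was 0.48 with limma voom, and without MiRNC670 and Nf809 that of Col4a4 was 0.09 and that of Col9a2 -0.16. Leaving out 1 tumour at a time, edgeR gave log2 fold changes of -0.06 to 0.77 for Col11a2, -0.16 to 0.19 for Col4a4, -0.42 to 0.14 for Col4a5, -0.39 to 0.19 for Col4a6, -1.28 to 0.16 for Col6a5, -4.13 to 0.12 for Col6a6, -0.63 to 0.33 for Col8a2 and -0.37 to 0.06 for Col7a1. No paired analysis was possible because the groups share no tumour numbers.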
